A study of Homo sapiens with 12 samples.

Results

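Resting gene expression in SKOV3ip, a derivative of the ovarian cancer cell line SKOV3, was read from 4 bead arrays of untransfected cells, out of 12 arrays in the series. The members were chosen by their titles, SKOV3ip_1 to SKOV3ip_4, and by the label that they received no siRNA, and they are called arrays 1 to 4 below. The other 8 arrays hold 4 of cells given a control siRNA (scrambled) and 4 of cells given an siRNA against EZH2, in the same line, and enter here only through the normalisation, which was run on all 12. The titles name the line SKOV3ip whereas the source labels name it SKOV3, and the extraction text speaks of tissues, although the samples are labelled as a cell line. Nothing in the labels says whether the 4 arrays come from separate cultures, so the SD given with each value covers array-to-array variation and may hold no biological variation. There is no contrast in these data, and therefore no test: the values describe the resting state of 1 cell line.

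SKOV3 was derived from the ascites of a patient with ovarian adenocarcinoma and is widely used as a model of ERBB2-driven ovarian cancer, since it carries extra copies of that receptor tyrosine kinase gene. ERBB2 binds no known ligand of its own and signals by pairing with EGFR, ERBB3 or ERBB4. Simple epithelia assemble their intermediate filaments from KRT8 paired with KRT18, usually with KRT7 in the ducts and the Müllerian epithelia, and PAX8 is a transcription factor that marks epithelia of Müllerian origin and is retained in most ovarian carcinomas. Epithelial cells hold to each other through E-cadherin, and mesenchymal cells are marked by vimentin and N-cadherin instead.

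Each array holds 1 signal for each of 48803 probes. A probe counted as above background on an array when its raw signal passed a threshold set by that array's own most frequent signal and the spread of the values below it (one-sided p of 0.01). A gene is represented by its brightest probe, and is called detected here when that probe was above background on 4 of 4 arrays and at background when it was so on 0 of 4. Levels are log2 of the background-corrected, quantile-normalised signal, given as the mean ± SD over the 4 arrays. A probe's brightness also depends on its own sequence, so the ranks order probe signals and do not order transcript numbers. Where a gene's probes disagree, the call belongs to the brightest probe. Examples are ERBB2, EGFR, NRG1, GRB7, FOLR1, MUC1, ITGB1, VEGFA, MECOM, RARA, PPARG, AKT1 and FGA, which have a probe above background on 0 of 4 arrays. A probe at background does not show that the transcript is absent, because the cells may make a transcript of the gene that the probe does not match.

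The arrays differed in brightness before any result is drawn from them. Mean raw signal was 409.8, 333.6, 297.8 and 156.7 intensity units on arrays 1 to 4, so array 4 was dimmer than the other 11 arrays of the series, whose 8 transfected members had 185.9 to 386.5. The share of all probes above background was 35.8%, 32.2%, 31.6% and 25.7% on arrays 1 to 4. Since a detected gene must pass on all 4 arrays, array 4 limits the calls: 9653 genes passed on arrays 1 to 3 together. Correlation of log2 levels between the 4 arrays lay between 0.98 and 0.992 across all 48803 probes, which are not independent replicates.

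Of 18852 named genes, 8476 were detected, which is 45.0%, and 7405 were at background, which is 39.3%. The other 2971 genes (15.8%) were above background on 1 to 3 arrays. Each count of list members below is to be read against the 45.0% detected and 39.3% at background over all genes. When every probe of a gene had to pass, 6436 of the 18852 genes were detected. Counts of list members that passed on every probe are to be read against that share. The median level was 8.38 for detected genes and 6.03 for genes at background, with median raw signals of 372 and 55.0. Of 364 olfactory receptor genes, which are read in the nose and few other tissues, 0 were detected (5 without array 4) and 24 were above background on 1 to 3 arrays. This is no independent check of the call, since the log2 scale of the background was chosen after looking at these probes; with the background set on the raw scale, 3 were detected. Detected genes were unevenly spread over the range, with 344 (4.06%) above a level of 12 and 959 (11.3%) under 7.

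**Figure D1:**
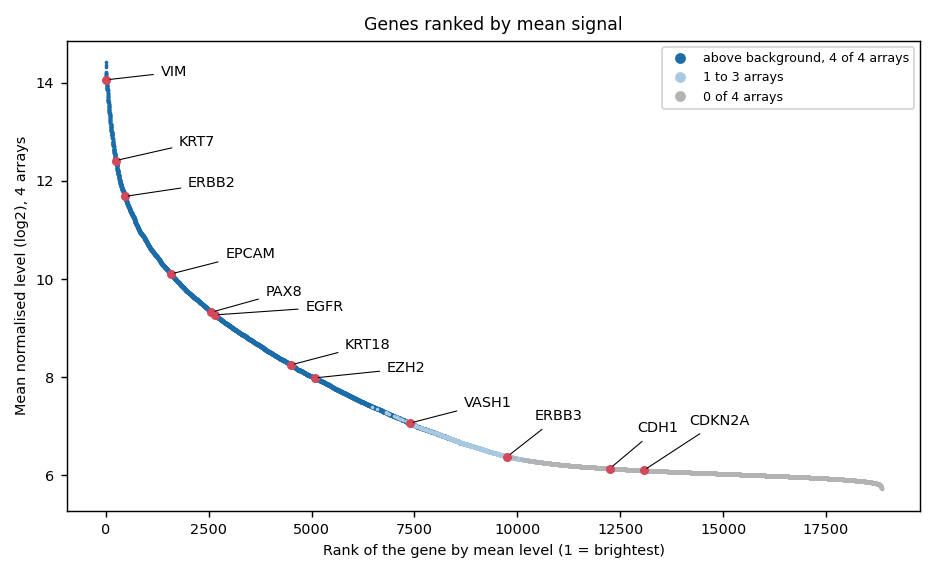
Mean normalised level (log2) of each named gene against its rank among the 18852 genes, with 12 genes marked in red. Colours give the number of arrays above background. The levels fall from 14.42 at rank 1 to 13.32 at rank 100, and CDKN2A lies among the genes at background.

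Most of the 25 brightest genes encode cytoskeletal proteins, ribosomal proteins or translation factors; the others include enzymes, a metallothionein, a histone and a pseudogene. TUBA1C, an alpha-tubulin, ranked first with raw signals of 24906, 22655, 24118 and 15582 on arrays 1 to 4 and a level of 14.42 ± 0.12 (SD, n = 4). EEF1A1, the elongation factor that carries aminoacyl-tRNA to the ribosome, followed at 14.37 ± 0.06, and TPT1, a calcium-binding growth-related protein, at 14.31 ± 0.16. MT2A, a metallothionein that binds zinc and copper, stood at rank 4 with raw signals of 19977, 22744, 20123 and 13130.0. The order among these genes is not resolved, since their SDs of 0.06 to 0.45 exceed the steps between neighbours, and 48 different genes were in the top 25 of at least 1 array while 6 were in the top 25 of all 4.

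Cytoskeletal genes filled several of the other places in the top 25. ACTB and ACTG1, the 2 cytoplasmic actins, had levels of 14.2 ± 0.32 and 14.19 ± 0.24; MYL6, a myosin light chain, had 14.18 ± 0.22, and TMSB4X, which holds actin monomers, had 14.13 ± 0.18. Vimentin (VIM), the intermediate filament of mesenchymal cells, ranked 16 with raw signals of 18388, 19913, 19029 and 12406, and its level of 14.06 ± 0.09 varied little between arrays. Of 27 cytoskeletal genes measured, 26 were detected, among them TUBA1A at 13.89 and EZR, which links actin to the membrane, at 13.54.

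Protein synthesis genes were as prominent. Of 78 cytosolic ribosomal protein genes, 73 were detected; 9 stood in the top 25 and 37 in the top 100, with a median level of 13.10. RPL41, RPL8 and RPL3 were the brightest of them, at 14.16 ± 0.21, 14.14 ± 0.11 and 14.14 ± 0.16. RPS27, RPL6, RPS10, RPS25, RPL32 and RPL38 made up the other ribosomal members of the top 25, at levels from 13.97 to 14.12. All 21 translation factors measured were detected, EIF4A1, an RNA helicase of initiation, being the brightest after EEF1A1 and TPT1 at 14.02 ± 0.24. Many of these genes have pseudogene copies with near-identical sequence, and a probe may read more than 1 copy.

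Enzymes among the 25 included LDHA, which makes lactate from pyruvate, with raw signals of 15964, 23166, 20737 and 16786 and a level of 14.11 ± 0.45, the widest SD of the 25. ATP5F1B, a subunit of mitochondrial ATP synthase, had 14.06 ± 0.27. OAZ1, which is not an enzyme but curbs polyamine synthesis, had 14.21 ± 0.25. H4C3, one of the histone H4 genes, had 14.05 ± 0.15; the histone H4 genes are near-identical in sequence. AMY1C, a salivary amylase gene, had 14.04 ± 0.19 on its single probe, and whether that probe reads other transcripts was not tested. SLC7A5P2, a pseudogene of the amino acid transporter SLC7A5, had 14.01 ± 0.10 on its brightest probe, and its other 2 probes were above background on 0 of 4 arrays. Of 19 glycolysis genes, 18 were detected, with ENO1 at 13.93, TPI1 at 13.56 and GAPDH at 13.53 among the brightest.

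Stress, iron and redox genes were likewise mostly detected. Of 17 iron, chaperone and ubiquitin genes 16 were detected, the brightest being HSP90AA1 at 13.86, HSPA8 at 13.7 and FTL, the ferritin light chain, at 13.64. PDIA3, a disulphide isomerase of the endoplasmic reticulum, was the exception with raw signals of 49.0, 48.0, 59.8 and 43.9 on its single probe. Of 28 detoxification genes 20 were detected, with PRDX1 at 13.71, SOD1 at 13.29 and GSTP1, which conjugates glutathione, at 12.95. AKR1C1, AKR1B10, ABCC2 and ABCG2 were at background, ABCG2 being a drug efflux pump.

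The line was checked against its 5 markers, ERBB2, KRT7, KRT8, KRT18 and PAX8, and each was detected on 4 of 4 arrays. KRT7 had raw signals of 7406, 6969, 6065 and 2743 and a level of 12.42 ± 0.16, and on every array it lay between the 98.4th and 98.9th percentile of the named genes. KRT8 had raw signals of 4135, 4144, 3478 and 1447 and a level of 11.57 ± 0.18, between the 96.5th and 97.5th percentile. KRT18, the partner of KRT8, had raw signals of 422, 474, 311 and 139 and 8.25 ± 0.26. Its percentile on the 4 arrays was 73.4 to 79.8, and its second probe was dimmer still, with a level of 6.84. Array 4, the dimmest array, was lowest for each of these 3 keratins in raw signal.

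The keratins as a family were mixed. Of 15 measured, 8 were detected (53.3%), 1 was above background on some arrays and 6 were at background, against 45.0% and 39.3% over all genes. KRT80 at 11.61 ± 0.18, KRT19 at 10.92 ± 0.32 and KRT10 at 10.21 ± 0.32 were detected beside KRT7 and KRT8, KRT19 being a small keratin of simple epithelia. KRT16 and KRT23 were detected at low levels, 6.92 ± 0.32 and 6.7 ± 0.21. KRT5 and KRT15, which mark basal cells of stratified epithelia, had levels of 5.93 and 6.19. KRT1, KRT4, KRT13 and KRT20, of stratified and intestinal epithelia, were also at background, at 5.94 to 6.11. KRT14 passed on 1 array at 6.18.

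PAX8 and its lineage partners were read next. PAX8 had raw signals of 931, 787, 655 and 350.2, a level of 9.32 ± 0.20 and a percentile of 84.4 to 88.4 on the 4 arrays. It was detected on its brightest of 3 probes, and the other 2 had levels of 7.36 and 6.33. SOX17, a factor of the tubal and ovarian epithelia, had raw signals of 1205, 953, 838 and 381 and a level of 9.59 ± 0.10. MECOM, an oncogenic zinc-finger factor, had 9.86 ± 0.08 on its brightest probe, and its other probe was above background on 0 of 4 arrays. LHX1 had 7.92 ± 0.08. WT1, which marks serous carcinoma and mesothelium, and EMX2 passed on 3 arrays at 6.32 and 6.46, the raw values of WT1 being 84.0, 89.1, 74.5 and 48.5. PAX2, GATA4 and GATA6 were at background on their brightest probe, at 6.23, 6.0 and 5.97. With 4 of 9 detected, 44.4%, the list lies near the 45.0% over all genes, and 2 of the 9 passed on every one of their probes.

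**Figure D2:**
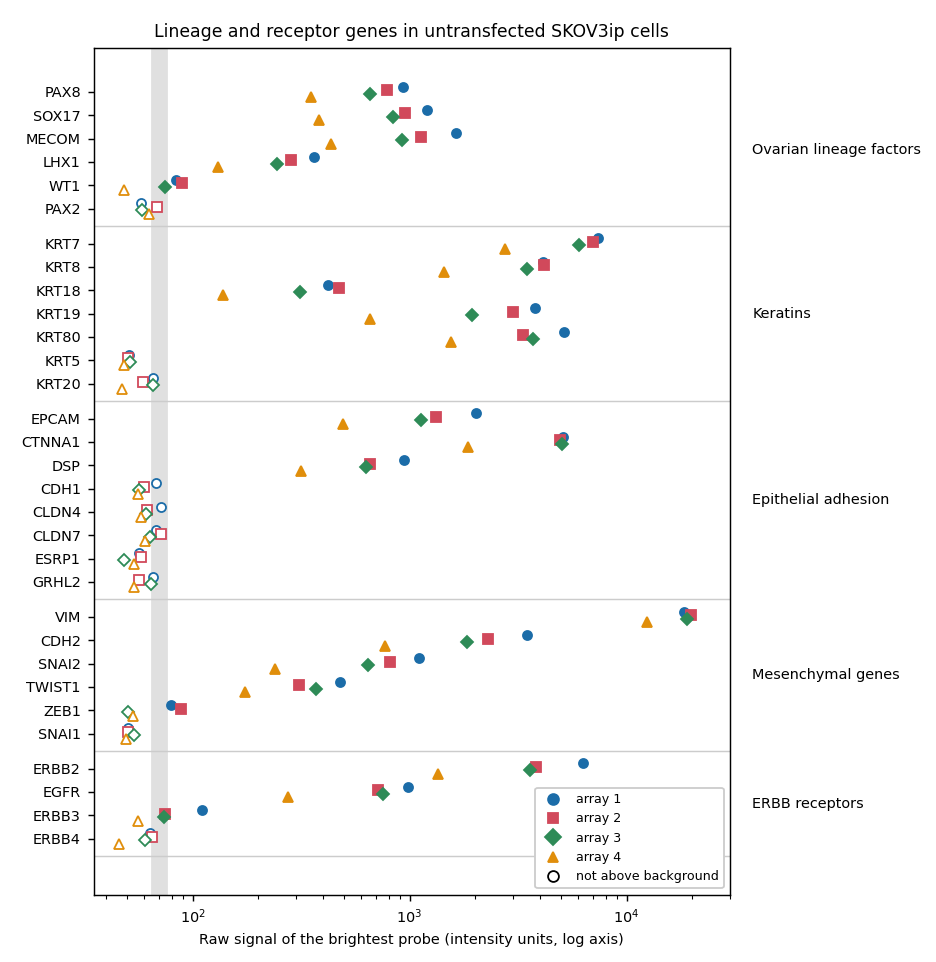
Raw signal of lineage, keratin, adhesion, mesenchymal and ERBB receptor genes on each of the 4 untransfected arrays (points), on a log axis, with the range of the arrays' thresholds for calling a probe above background (shaded band). Filled points passed the threshold of their own array and open points did not. ERBB2, KRT7, KRT8 and VIM lie far above the band on every array, while all 4 points of CDH1 are open.

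Markers of ovarian tumour surfaces and secretions were mixed as well. Of 23 measured, 12 were detected (52.2%, against 45.0% over all genes), a further 3 passed on some arrays and 8 were at background. On every one of their probes 5 of the 23 passed, a lower share than the 6436 of 18852 over all genes. CD24, a glycoprotein anchored in the membrane, had raw signals of 11865, 8612, 7357 and 3866 and a level of 12.84 ± 0.11, CD44 had 12.52 ± 0.27 and LCN2, an iron-trafficking lipocalin, 10.96 ± 0.19. EPCAM, the epithelial cell adhesion molecule, had raw signals of 2015, 1328, 1128 and 493, and FOLR1, the folate receptor of ovarian tumours, 994, 827, 765 and 257. MSLN, which is mesothelin, and MUC1 were detected at 8.66 ± 0.30 and 7.79 ± 0.28. MUC16, the mucin that carries the CA125 antigen, passed on 1 array, with raw signals of 90.2, 71.8, 66.7 and 52.6. CLDN4, KLK6, KLK10, KLK11, PROM1, CLDN6, CEACAM6 and VTCN1 were at background, at levels of 5.75 to 6.2.

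E-cadherin and N-cadherin gave opposite calls. CDH1, E-cadherin, was at background on its single probe with raw signals of 67.7, 59.9, 56.8 and 55.9 and a level of 6.14 ± 0.07. CDH2, N-cadherin, was detected with raw signals of 3492, 2287, 1838 and 772 and a level of 10.83 ± 0.13. Array 1 was highest and array 4 lowest for CDH2, and CDH2 passed the threshold on every array while CDH1 passed it on none.

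Epithelial adhesion genes as a group were detected in 15 of 29 cases (51.7%), with 13 at background, near the 45.0% and 39.3% over all genes. On every probe 7 of the 29 passed, a lower share than the 6436 of 18852 over all genes. Several detected members lie on the inner side of junctions or in desmosomes, such as CTNNA1, alpha-catenin, at 11.92 ± 0.24, TJP1, ZO-1 of the tight junction, at 9.75 ± 0.21, DSP, desmoplakin, at 9.22 ± 0.17, and JUP at 9.19 ± 0.16. CLDN1 had 10.73 ± 0.15 and SPINT2, an inhibitor of membrane serine proteases, 11.64 ± 0.02. Genes at background included CDH1, CDH3, CLDN4, CLDN7, OCLN, CTNND1, ESRP1 and ESRP2. ESRP1 and ESRP2 are splicing regulators of epithelial cells and had levels of 6.02 and 5.98. The epithelial factor genes GRHL2, at 6.14, and OVOL1, at 6.01, were also at background, whereas ELF3 was detected at 7.39 ± 0.21.

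Mesenchymal genes were detected in 13 of 24 cases (54.2%, against 45.0% over all genes), with 5 above background on some arrays and 6 at background. After vimentin the brightest were S100A4, a calcium-binding protein of motile cells, at 12.72 ± 0.16, TAGLN at 12.63 ± 0.07, TGFBI, a matrix protein, at 12.62 ± 0.15 and AXL, a receptor tyrosine kinase, at 11.86 ± 0.30. Of the transcription factors that repress E-cadherin, SNAI2 was detected with raw signals of 1104, 813, 645 and 239.9, TWIST1 at 8.3 ± 0.22 and TWIST2 at 7.17 ± 0.26. SNAI1 and ZEB2 were at background, at 5.95 and 6.14, and ZEB1 passed on 2 arrays at 6.22. COL1A1, at 6.09, FBN1, at 6.13, MMP2, at 6.11, and THY1, at 6.13, were also at background. FN1, fibronectin, and COL1A2 passed on 1 array at 6.11 and 6.14, COL3A1 on 2 at 6.34 and LOX, which cross-links collagen, on 3 at 6.83.

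The brightest probe of ERBB2 had the highest signal of its receptor family. Raw signals were 6315, 3829.6, 3576 and 1346 on arrays 1 to 4, the level was 11.68 ± 0.17, and the gene ranked 462 of 18852, between the 97.3rd and the 98.0th percentile on the 4 arrays. Its other 2 probes were above background on 0 of 4 arrays, with levels of 6.0 and 6.02, so the call rests on 1 of 3 probes. Averaged over its probes, ERBB2 would lie at the 76.7th percentile of the named genes. EGFR had raw signals of 983, 716, 757 and 276 and a level of 9.27 ± 0.13, on the brightest of 4 probes, of which 2 others were above background on 0 of 4 arrays. ERBB3 passed on 3 arrays, with raw signals of 110.1, 74.5, 73.9 and 56.3 and a level of 6.38 ± 0.14, and ERBB4 was at background with 63.5, 65.0, 60.2 and 45.7.

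Of the adaptors that carry the signal inward, SHC1 had 10.6 ± 0.19, GRB2 8.49 ± 0.30, and CBL, the ubiquitin ligase that takes the receptors down, 8.39 ± 0.18. ERRFI1, an inhibitor of EGFR and ERBB2 kinase activity, had 10.21 ± 0.12. ERBIN had 6.56 ± 0.27, SOS1 passed on 2 arrays at 6.33 and GAB1 was at background at 6.18. In all, 8 of 12 genes of this list were detected (66.7%, against 45.0% over all genes). On every probe 3 of the 12 passed, a lower share than the 6436 of 18852 over all genes. Among 9 ligands of the EGF family, 3 were detected: HBEGF with raw signals of 733, 639, 552 and 238, TGFA with 786, 535, 456 and 263, both ligands of EGFR, and NRG1, a ligand of ERBB3 and ERBB4, with 735, 492, 482 and 241. EGF itself, EREG, NRG2 and NRG4 were at background, at 5.93 to 6.08, and BTC and NRG3 passed on 1 array.

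Genes that lie beside ERBB2 on chromosome 17 in RefSeq order were detected in 14 of 20 cases (70.0%, ERBB2 included), against 47.5% of the named genes on that chromosome; 8 of the 14 passed on every probe. PPP1R1B, a phosphatase inhibitor known from neurons, had raw signals of 7556, 5115, 6136 and 1990.0 and a level of 12.2 ± 0.22 at rank 295. Of the nearer neighbours, PGAP3 had 8.6 ± 0.13, MIEN1 7.5 ± 0.13, STARD3, a cholesterol-binding protein, 7.98 ± 0.21, and GRB7, an adaptor that binds ERBB2, 8.05 ± 0.23. Raw signals of GRB7 were 416, 245, 317 and 145. Further out, MED1, a Mediator subunit, had 8.62 ± 0.33, CDK12 8.12 ± 0.16, PSMD3 9.04 ± 0.12, MED24 9.31 ± 0.19, ORMDL3 7.8 ± 0.25, GSDMB 6.88 ± 0.13, GSDMA 7.18 ± 0.49 and THRA 6.8 ± 0.11. NEUROD2, TCAP, PNMT, ZPBP2 and CSF3 were at background and IKZF3 passed on 2 arrays. Levels of different probes cannot be set against each other, so no gradient along the chromosome was drawn from them.

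RefSeq promoter windows of 300 bases, from 250 before to 50 after each gene's start in GRCh38.p14, were read for the detected and the background genes. The RefSeq start need not be the one these cells use. The 5 windows below are shown because they set a detected keratin gene beside a background one, and ERBB2 and VIM beside the background epithelial gene CLDN7. Each sequence is given 5′ to 3′ on the gene's strand, in lower case with the CG dinucleotides in capitals. KRT8 lies on the minus strand (chr12:52926420-52926719) and holds 2 CG, KRT20 on the minus strand (chr17:40885193-40885492) also holds 2, ERBB2 on the plus strand (chr17:39687844-39688143) holds 24, VIM on the plus strand (chr10:17227991-17228290) holds 10, and CLDN7 on the minus strand (chr17:7263164-7263463) holds 10.
KRT8: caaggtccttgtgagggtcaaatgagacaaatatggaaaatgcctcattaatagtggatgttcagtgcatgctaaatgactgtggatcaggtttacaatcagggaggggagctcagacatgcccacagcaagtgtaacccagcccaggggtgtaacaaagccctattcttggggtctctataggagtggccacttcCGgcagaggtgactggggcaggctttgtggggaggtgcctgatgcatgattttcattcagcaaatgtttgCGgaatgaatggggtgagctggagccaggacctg
KRT20: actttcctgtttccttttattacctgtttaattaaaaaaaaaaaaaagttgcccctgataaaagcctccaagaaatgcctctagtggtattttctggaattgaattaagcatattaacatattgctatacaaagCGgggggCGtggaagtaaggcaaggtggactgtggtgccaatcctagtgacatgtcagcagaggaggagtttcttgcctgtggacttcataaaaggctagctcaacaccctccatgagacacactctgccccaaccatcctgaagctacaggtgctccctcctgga
ERBB2: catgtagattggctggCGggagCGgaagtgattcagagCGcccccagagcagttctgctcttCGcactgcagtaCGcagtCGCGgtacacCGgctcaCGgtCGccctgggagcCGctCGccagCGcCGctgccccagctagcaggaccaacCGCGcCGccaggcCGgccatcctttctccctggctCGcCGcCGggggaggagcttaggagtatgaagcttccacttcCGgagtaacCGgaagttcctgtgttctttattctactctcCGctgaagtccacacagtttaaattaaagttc
VIM: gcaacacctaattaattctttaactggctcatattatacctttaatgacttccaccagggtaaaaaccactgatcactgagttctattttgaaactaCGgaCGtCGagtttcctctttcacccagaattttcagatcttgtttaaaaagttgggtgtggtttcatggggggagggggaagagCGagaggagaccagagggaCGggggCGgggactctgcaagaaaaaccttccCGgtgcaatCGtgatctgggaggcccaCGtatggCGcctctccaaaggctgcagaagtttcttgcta
CLDN7: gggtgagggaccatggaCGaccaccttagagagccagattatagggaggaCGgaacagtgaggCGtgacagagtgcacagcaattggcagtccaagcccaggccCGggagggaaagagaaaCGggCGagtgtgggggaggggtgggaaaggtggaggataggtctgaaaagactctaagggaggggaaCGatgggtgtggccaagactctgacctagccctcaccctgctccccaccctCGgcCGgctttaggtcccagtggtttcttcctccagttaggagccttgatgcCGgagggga
KRT8, detected at 11.57, and KRT20, at background at 6.11, carry the same CG count. VIM, detected at 14.06, and CLDN7, at background at 6.28, do so as well, and ERBB2, with 24, was detected. These windows were chosen and not sampled, so they do not show how the count runs with detection.

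Across all 14080 protein-coding genes matched to a promoter window (81.2% of 17333), detection rose with the CG count. Of 2204 genes with 0 to 4 CG dinucleotides 12.2% were detected and 74.1% were at background; of 1389 with 5 to 9 the shares were 23% and 59.7%. Of 2369 with 10 to 19 the shares were 47.3% and 33.9%, and of 8118 with 20 or more they were 65.4% and 19.5%. The median count was 27 for detected and 9 for background genes. Single arrays gave 12.8% to 23.3% in the lowest class and 66.1% to 78.8% in the highest. Genes are not replicates, and matched genes were 84.2% of the detected and 78% of the background protein-coding genes. In all, 30.5% of the promoter windows in the table hold 0 to 4 CG and 41.2% hold 20 or more.

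**Figure D3:**
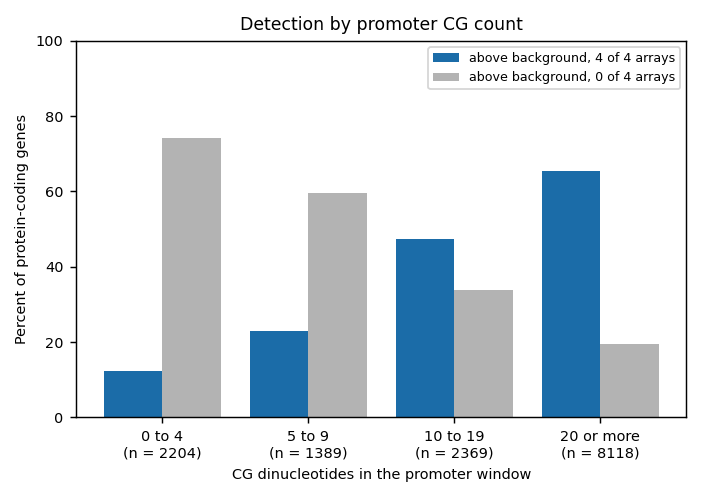
Percentage of protein-coding genes above background on 4 of 4 arrays (blue) and on 0 of 4 arrays (grey), by the number of CG dinucleotides in the 300-base promoter window, with the number of genes under each pair of bars. The blue bars rise from 12.2% to 65.4% while the grey ones fall from 74.1% to 19.5%.

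Short motifs were then searched on both strands in the same windows. Genes holding TATAAA, the core of the TATA box, were detected in 27.9% of 1304 cases against 52.1% of 12776 without it, and 12% of all promoter windows in the table hold it. For GGGCGG, the core of the GC box, the shares were 60.5% with it and 33.9% without, and 44.6% of all windows hold it; this motif contains a CG dinucleotide and so overlaps with the count above. For CCAAT they were 51.6% and 48.8%, and 35.7% of all windows hold it. The TATAAA windows had a median of 5 CG against 24 in those without. A match is only a description of the letters in the window.

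Other receptor tyrosine kinases were detected in 17 of 39 cases (43.6%), close to 45.0% over all genes, and in 11 on every probe. RYK, a Wnt co-receptor, at 10.44 ± 0.17, EPHA2, an ephrin receptor, at 9.53 ± 0.28, TYRO3 at 8.84 ± 0.09 and EPHB4 at 8.81 ± 0.34 followed AXL. MET, the receptor of hepatocyte growth factor, had raw signals of 665, 353, 209.6 and 129 and a level of 8.14 ± 0.39. MUSK and KIT were detected at 7.95 ± 0.15 and 7.31 ± 0.14. Background members included FGFR2, PDGFRB, FLT3, CSF1R, KDR, FLT1, FLT4 and TEK. TIE1, a receptor of vessels, was detected at 7.12 ± 0.10. FGFR1, PDGFRA, EPHA4 and RET passed on 3 arrays.

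Nuclear receptors were detected in 11 of 30 cases (36.7%, against 45.0% over all genes), and in 7 on every probe. RXRA, RARA and PPARG, which bind retinoids and fatty acid ligands, had 8.98 ± 0.19, 8.88 ± 0.15 and 8.85 ± 0.13. ESR1, the estrogen receptor alpha, was detected at a low level, 7.1 ± 0.23, with raw signals of 221, 112, 131 and 88.0. PGR, the progesterone receptor, and ESR2 were at background, at 5.84 and 6.17, and NR3C1, the glucocorticoid receptor, passed on 2 arrays at 6.58. NR5A1, which directs steroid-producing cells, was at background at 6.02.

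Cytokine, death and innate receptors were detected in 16 of 36 cases (44.4%), close to the 45.0% over all genes. TNFRSF21, a death receptor, had 10.76 ± 0.27, IFNGR2 10.2 ± 0.09, IL13RA1 9.98 ± 0.13 and TNFRSF1A 9.63 ± 0.18. TNFRSF10B, a receptor of TRAIL, had 9.6 ± 0.21. Among the 14 members at background were IL2RA, at 6.05, TLR2, at 5.93, TLR4, at 5.97, CXCR4, at 6.0, and FAS, at 5.98. Of 26 receptors of TGF-beta, Notch and Wnt ligands, 16 were detected (61.5%): FZD2 at 9.67 ± 0.11, TGFBR2 at 9.37 ± 0.15, ACVR1 at 8.71 ± 0.10 and FZD6 at 8.5 ± 0.53 stood highest. TGFBR1, which pairs with TGFBR2, was at background at 6.15, as were NOTCH3 and NOTCH4. Of 24 integrins 9 were detected (37.5%), 4 of them on every probe, led by ITGB1 with raw signals of 19033, 15764, 10427 and 5329.6, and then ITGB5 at 11.82 ± 0.16 and ITGA3 at 11.29 ± 0.15. ITGB2, the beta chain of leukocyte integrins, was detected at 8.26 ± 0.09, while the alpha chains that pair with it, ITGAL, ITGAM and ITGAX, were at background.

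**Figure D4:**
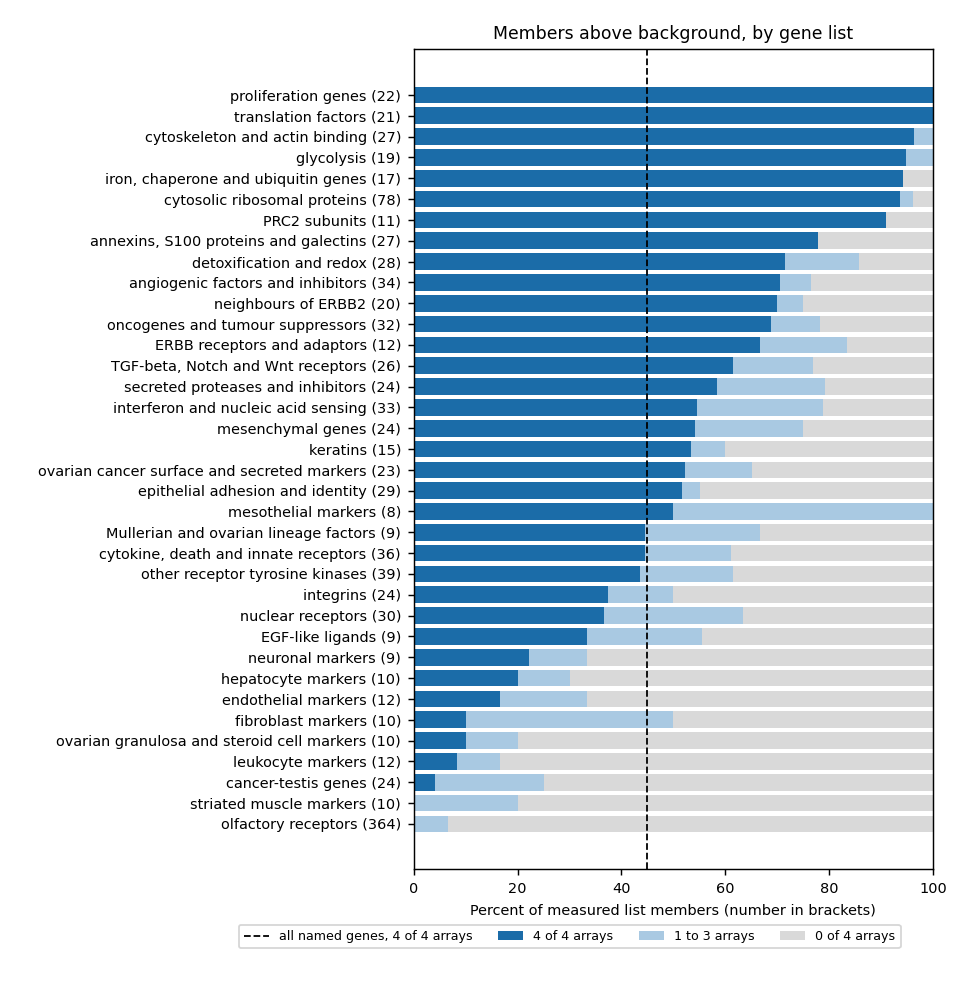
Percentage of the measured members of each gene list that were above background on 4 of 4, on 1 to 3 and on 0 of 4 arrays, with the number measured in brackets and a dashed line at the 45.0% of all named genes. Proliferation and translation genes were detected in every case measured, and cancer-testis genes in 1 of 24.

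Oncogenes and tumour suppressors were detected in 22 of 32 cases (68.8%, against 45.0% over all genes). BCL2L1, an anti-apoptotic protein, had 12.79 ± 0.10, CCND1, cyclin D1, 12.23 ± 0.21, AKT1 11.97 ± 0.21 and CDK4, the kinase that pairs with cyclin D, 11.83 ± 0.25. CCND3 had 10.94 ± 0.04. CDKN2A, the inhibitor of that kinase, was at background on all of its 3 probes, with raw signals of 60.5, 61.5, 55.3 and 54.8 and a level of 6.1 ± 0.06. Of its neighbours on chromosome 9, CDKN2B passed on 3 arrays at 6.5, and MTAP was detected with raw signals of 325, 214, 167 and 83.1. MYCN, MYCL, MDM2, MDM4, NF1 and APC were at background, at 5.87 to 6.18.

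EZH2, the methyltransferase of the Polycomb complex that the study's siRNA targets in its other cells, had raw signals of 398, 251, 235 and 159.9 and a level of 7.99 ± 0.26, and each of its 3 probes was above background on 4 of 4 arrays. Of 11 genes of the complex, 10 were detected. SUZ12 and EED, its core partners, had 10.68 ± 0.32 and 9.24 ± 0.23, RBBP7 had 10.35 ± 0.15, PHF1 8.52 ± 0.45 and JARID2 8.1 ± 0.12, and EZH1, the paralog of EZH2, was at background with raw signals of 55.0, 71.2, 64.3 and 44.6. All 22 proliferation genes were detected. RRM1, of ribonucleotide reductase, had 12.24 ± 0.15, MCM3 and MCM7, of the replicative helicase, 12.19 ± 0.16 and 11.84 ± 0.10, TYMS 11.98 ± 0.07 and PCNA 11.66 ± 0.17, and MKI67 was lowest at 7.81 ± 0.24.

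VASH1, an inhibitor of vessel growth, had raw signals of 168, 134, 117 and 89.7 and a level of 7.06 ± 0.18. Array 1 was highest and array 4 lowest in raw signal, whereas on the normalised scale array 4 was highest at 7.34, and every array passed its threshold. Of 34 angiogenic factors and inhibitors, 24 were detected (70.6%, against 45.0% over all genes). THBS1, an inhibitor, had 12.94 ± 0.30, TIMP1 11.97 ± 0.16, CCN1 11.95 ± 0.33, CCN2 11.8 ± 0.14 and ADM, a vasodilator peptide, 11.73 ± 0.17. VEGFA, the main vascular growth factor, had raw signals of 119, 87.6, 100.1 and 68.7 and a level of 6.67 ± 0.12. VEGFD, PGF, ANGPT2, DLL4, THBS2, TIMP3, SERPINF1 and VASH2 were at background, at 5.82 to 6.16. Of 24 secreted proteases and inhibitors 14 were detected (58.3%), the brightest being TIMP1, SERPINE2 at 11.94 ± 0.12, TIMP2 at 11.67 ± 0.30, PLAU, urokinase, at 11.27 ± 0.18 and CTSL at 10.86 ± 0.06. MMP2, MMP9, MMP11 and MMP13 were at background, MMP2 and MMP9 being gelatinases.

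Interferon and nucleic acid sensing genes were detected in 18 of 33 cases (54.5%, against 45.0% over all genes). B2M, the light chain of class I molecules, had 12.22 ± 0.26, HLA-B 10.62 ± 0.33, TAP1 9.47 ± 0.15 and EIF2AK2, a kinase that senses double-stranded RNA, 9.42 ± 0.39. BST2 had 9.26 ± 0.23. RIGI and IFIH1, sensors of viral RNA, passed on 1 array each, at 6.25 and 6.24. CGAS, DHX58, MX2, OAS2, OASL, IFIT2 and IFI44L were at background, CGAS being a DNA sensor and the others mostly induced by interferon. HLA-C passed on 1 array at 6.15. Of 27 annexins, S100 proteins and galectins 21 were detected, the brightest being ANXA2 at 13.85 ± 0.24, S100A10 at 13.01 ± 0.10, LGALS1 at 12.88 ± 0.14 and S100A6 at 12.85 ± 0.09. S100A7, S100A8, S100A9, S100A14 and S100P were at background, as was LGALS7.

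The cancer-testis genes, which are read in the germ line and in some tumours, were detected in 1 of 24 cases, the exception being PRAME with raw signals of 409.8, 256, 249.9 and 125 and a level of 7.91 ± 0.08; at least 1 of its 3 probes was above background on 0 of 4 arrays. Of the other members, 18 were at background and 5 passed on 1 or 2 arrays; the MAGE genes belong to the former or passed on 1 array.

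Markers of 8 other cell types were checked next. Of 80 measured genes, 13 were detected, 5 when every probe of a gene had to pass and 19 without array 4. Over all 18852 named genes these counts were 8476 (45.0%), 6436 and 9653. The 13 fall into 2 of 12 endothelial, 1 of 12 leukocyte, 1 of 10 fibroblast, 4 of 8 mesothelial, 1 of 10 granulosa and steroid cell, 2 of 10 hepatocyte, 2 of 9 neuronal and 0 of 10 striated muscle markers. Without array 4, fibroblast markers numbered 2, mesothelial 7 and granulosa and steroid cell markers 2. Among markers of blood and vessels, PTPRC at 6.12, CD3E at 5.94, VWF at 6.01 and CDH5 at 6.11 were at background. Others were not: PECAM1 passed on 3 arrays at 6.345, and ESAM at 6.19 and LYZ at 6.33 passed on 1 array each. DCN and LUM, of fibroblasts, were at 6.05 and 5.97, and ALB, of hepatocytes, at 6.08. Summed raw signal of the list lay between 762.1 and 1859.0 on the 4 arrays for leukocyte, 508.6 and 766.2 for fibroblast, 684.9 and 1063.0 for endothelial and 499.1 and 593.6 for striated muscle markers. It lay between 717.6 and 2038 for mesothelial, 538.3 and 752.8 for granulosa and steroid cell, 676.1 and 1354 for hepatocyte and 513.7 and 728.9 for neuronal markers. The detected ones were SOX18 at 7.27, TIE1 at 7.12, CD68, a lysosomal protein, at 9.27, POSTN at 6.65, MSLN at 8.66, LRRN4 at 8.71, PDPN at 7.02, UPK3B at 6.58, CYP11A1 at 6.59, SERPINA1 at 8.31, FGA at 7.83, GRIN1 at 7.2 and SNAP25 at 6.55. Mesothelial markers were detected most often of the 8 lists, and some of them, such as MSLN and WT1, are known to be expressed by ovarian carcinomas too. Of the granulosa markers, AMH passed on 3 arrays at 6.8, while FOXL2 at 6.2, CYP19A1 at 6.07 and FSHR at 6.14 were at background. The part of other cells in any level was not tested.

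By kind of gene, 48.1% of 17333 protein-coding genes were detected, 3.11% of 1060 long non-coding RNAs, 20.2% of 336 transcribed pseudogenes and 42.4% of 59 small nucleolar RNAs. Among the brightest long non-coding RNAs were SNHG32 at 11.43 ± 0.12, BCYRN1 at 11.09 ± 0.24 and SNHG5 at 10.18 ± 0.31; SNHG32 and SNHG5 are host genes of small nucleolar RNAs. The share detected by chromosome lay between 37.7% on chromosome X and 52.8% on chromosome 16.

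The median SD between the 4 arrays over 8476 detected genes was 0.186, and 90% of them lay at or under 0.338. It depends on the quantile normalisation: with a 75th percentile shift the median SD was 0.388. The 10 genes with the largest SD were L1CAM, LRRFIP1, PKD1, VOPP1, SALL3, SSBP3, CASC3, OSBPL8, PARPBP and SEMA3C, with SDs from 0.668 to 0.778. L1CAM, a neural adhesion molecule also found in ovarian carcinoma, had normalised levels of 8.17, 7.79, 8.81 and 9.56 on arrays 1 to 4, and raw signals of 470.3, 254, 470.2 and 344. In raw signal arrays 1 and 3 were highest, so the order on the normalised scale is not the one on the raw scale. SEMA3C, a semaphorin, had 8.98, 8.86, 7.76 and 7.77, and OSBPL8, a lipid transfer protein, had 9.12, 8.95, 7.93 and 7.81. PKD1, of polycystin-1, had 7.24, 7.26, 8.14 and 8.75. In 9 of these 10 genes, arrays 1 and 2 lay on one side of arrays 3 and 4 in normalised level, LRRFIP1 being the exception; 6 were higher on arrays 3 and 4 and 3 were lower.

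**Figure D5:**
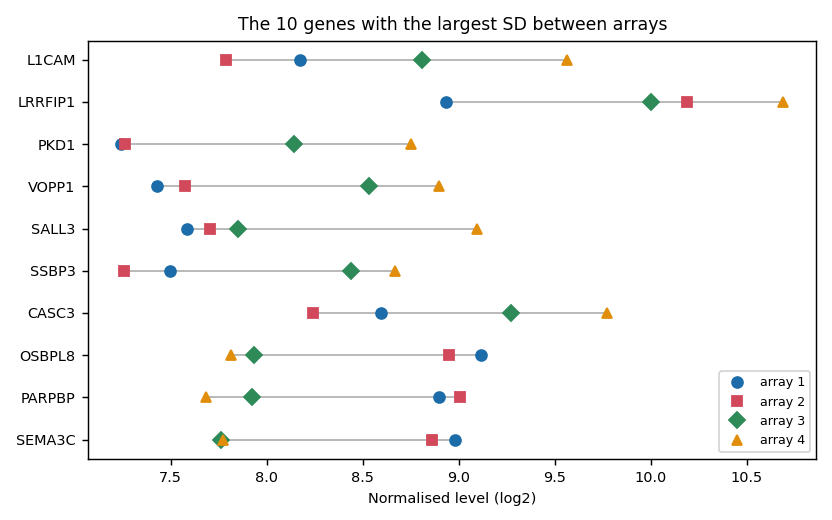
Normalised level (log2) of the 10 genes with the largest SD among the detected genes, on arrays 1 to 4 (points). In all but LRRFIP1, arrays 1 and 2 lie to one side of arrays 3 and 4.

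A weaker tendency of the same kind was seen across the 8476 detected genes. Each gene's level was set against its mean over the 4 arrays, and these differences correlated across genes at 0.281 between arrays 1 and 2 and 0.147 between arrays 3 and 4. Between any array of the first pair and any of the second the correlation was -0.667 to -0.538. Arrays of equal and independent spread would give -0.333 for each pair, because the 4 differences sum to 0. Genes are not independent replicates, and nothing in the labels groups these arrays into pairs. The share of detected genes more than 0.5 away from their mean was largest on array 4, 226 of 8476, and was 97, 86 and 45 genes on arrays 1 to 3. The difference from the mean hardly ran with the GC content of the promoter window, with correlations of -0.046 to 0.089. That window is not the probe sequence, whose GC content was not examined. Without array 4 the median SD was 0.163.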

How the data were processed

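Total RNA of the 4 untransfected samples was labelled and hybridised to Illumina bead arrays. The authors deposited a table of linear intensity, 1 value a probe on each array, for which the submitters' processing notes name BeadStudio 3.2; its background settings are not given in these sources. A further table that the authors deposited is on the log2 scale and equals quantile-normalised log2 intensity to within 5e-05, as a comparison of both showed. No genome build is named. All 12 sample columns of each table were assigned, with 0 left unused. Depth does not apply to arrays, so the number of arrays, 4, limits the precision.

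The raw signals were corrected with limma 3.58.1 (R 4.3.3; normexp, offset 50), log2 transformed and quantile-normalised over 12 arrays. Python 3.11.15, scipy 1.17.1 and matplotlib 3.10.9 were used for the rest. The background of each array was fitted on the log2 scale: the most frequent signal, with the spread of lower values mirrored above it, and a one-sided p of 0.01. The log2 scale was chosen after looking at the olfactory receptor probes. On simulated arrays of 48803 probes (5 runs), 0.966% of empty probes were called per array and 0.0% on 4 of 4. These probes were drawn from the fitted background itself, independently on each array, so such shares were set by the threshold and do not check it. Of the real olfactory receptor probes, 3.94%, 2.78%, 1.86% and 0.696% were above background on arrays 1 to 4. Of the probes, 28098 carried 1 gene symbol in GEO's platform annotation, 13 several and 20692 none; probes with several or none were not named. Of 6132 genes with several probes, 3278 were detected, and 1327 of these (40.5%) had another probe above background on 0 of 4 arrays. Promoter windows and gene order came from RefSeq GRCh38.p14.

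The members and the 34 gene lists were chosen with earlier results of these data known. The naming rule covered the 25 brightest genes and the 5 line markers with EZH2, VASH1 and CDKN2A. In each list it covered up to 5 of the brightest detected members and up to 8 background members. It also took in every other-cell-type marker seen on an array, the ERBB receptors and ERBB2 neighbours, and the 10 genes of largest SD. Not every gene under the rule is named above, other-cell-type markers included. Any other gene named, such as those that passed on 1 to 3 arrays, was chosen after its values were seen. List members that the tables do not hold were not analysed here. No test was run, since there is 1 group. The alternatives were other thresholds and background fits, every probe or the mean over probes, other normalisations, and leaving out each array.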

Additional observations from a re-analysis of the deposited data

Results flagged for a closer look

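Of the 247 genes whose levels are given in this text, 16 had 1 array far from the other 3 by Dixon's criterion (gap to the nearest other array over the whole range, normalised log2 levels). By chance this marks about 1 group in 20. The far array was array 4 for 6 genes, array 1 for 5, array 2 for 4 and array 3 for 1. On array 1 KRT8 was low at 11.31 against 11.63 to 11.69 on the others, ENO1 13.35 against 14.05 to 14.17, LCN2 10.67 against 11.03 to 11.07 and GRIN1 6.93 against 7.25 to 7.31. Array 4 was high for VASH1, 7.34 against 6.95 to 7.0, for STARD3, 8.30 against 7.83 to 7.90, and for UPK3B, 6.92 against 6.44 to 6.49, and low for CTSL, 10.77 against 10.89 to 10.90. On array 2 B2M was low at 11.83 against 12.31 to 12.41, and MT2A was high at 14.37 against 14.16 to 14.19. COL1A2, above background on 1 array, had 6.36 on array 2 against 6.04 to 6.08. The other 5 genes were at background on all 4 arrays, where single values carry no level: FSHR had 6.54 and TLR2 6.11 on array 4, IL2RA 6.21 on array 1, KRT1 6.05 on array 2 and PDIA3 6.14 on array 3.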

How the results depend on the processing

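No paired analysis was possible because the results describe 1 group and come from no test. The number of detected genes was 8476, and it was 9045 at p of 0.05, 7903 at p of 0.001, 8235 with the 99th percentile of olfactory receptor probes as threshold, 6436 when every probe of a gene had to pass, 9719 on at least 3 arrays and 9002 with the background fitted on the raw scale, an alternative added after seeing the data. Leaving out each array in turn gave 8487 to 9653, the highest without array 4. Genes at background numbered 7405 to 8114 in the same way. Detected members of the other-cell-type lists numbered 13, 5 when every probe had to pass and 13 to 19 when 1 array was left out; that rule also moved 14 of 36 lists by over 1.5 times. Of the 25 brightest genes, 15 were shared when the mean over probes was used and 20 to 25 when 1 array was left out. The median SD was 0.186, 0.388 with a 75th percentile shift, and 0.163 to 0.182 with 1 array left out. Between the highest and lowest CG class the detected share differed by 53.3 percentage points, 55.1 at p of 0.05 and 53.3 to 57.2 with 1 array left out, 57.2 without array 4. The cause of these shifts was not tested. Of the other alternatives run, 57 values of overall results and 400 of single genes or lists stayed within 1.5 times (counts) or 1 SD (values). For single genes or lists, 40 values did not. Signal over background limits low levels: genes under a level of 7, 959 of 8476, lie near the threshold.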

Other observations

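Genes outside the naming rule were chosen for their brightness after the values were seen. CLEC2D, a lectin-like receptor of immune cells, ranked 29 with raw signals of 18726, 17501, 18726 and 8476 and a level of 13.94 ± 0.09. Of its other probes, 1 passed on 1 array and another on 4 of 4. LAIR1, an inhibitory receptor of leukocytes, ranked 34 at 13.92 ± 0.27 with its other probe above background on 1 array, although PTPRC, the common leukocyte antigen, was at background. CLUAP1, a protein of cilia, ranked 38 at 13.89 ± 0.09, and all of its 5 probes were detected. F2R, the thrombin receptor PAR1, ranked 47 with raw signals of 18410.4, 16232, 15491 and 7864 and a level of 13.8 ± 0.11. The probes of LAIR1 disagree, and those of CLEC2D do so in part, so these ranks belong to single probes. Pseudogenes also stood among the 50 brightest, with RPL13AP20 at 13.89 ± 0.13 and RPL13AP3 at 13.76 ± 0.04 on single probes; signals of the parent gene and its copies cannot be told apart here.

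Genes that most cells express at high levels did not all stand high on these arrays. PPIA, cyclophilin A, had 7.28 ± 0.08, and HSPA5, a chaperone of the endoplasmic reticulum, 7.95 ± 0.04, each on a single detected probe. Of 20692 probes with no symbol, 1525 (7.37%) were above background on 4 of 4 arrays, against 37.9% of the 28098 with 1 symbol, and the brightest unnamed probe had a level of 14.28 ± 0.13 (SD, n = 4).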
